A study of Mus musculus with 6 samples.

Results

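Expression of 10 genes, S100a4, S100a6, S100a10, S100a11, Anxa1, Anxa2, Lgals1, Lgals3, Vim and Emp3, was examined in natural killer (NK) cells of the mouse thymus. The genes were chosen by name, as S100, annexin and galectin genes with vimentin and the membrane protein gene Emp3, and were found by their Entrez identifiers. All 10 were present among the 26332 genes of the count table, and all 10 passed the filter on low counts. RNA-seq libraries came from 2 Tcf7 knock-out (KO) mice and 4 wild-type (WT) mice, each library from an individual C57BL/6 animal. KO 1, WT 1 and WT 3 were labelled male, and KO 2, WT 2 and WT 4 were labelled female. The labels give neither the ages of the mice nor the design of the knock-out allele. Cells without surface TCRbeta, CD3, CD8 or CD1d-tetramer binding and with NK1.1 and NKp46 were sorted, and Tcf7, which encodes the transcription factor TCF-1, was the targeted gene.

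S100 proteins are small calcium sensors that usually work as dimers and change the activity of partner proteins when calcium binds. Annexins bind phospholipid membranes in the presence of calcium, and galectins bind beta-galactoside sugars on glycoproteins. The families meet physically: S100A10, which has lost calcium binding, forms a complex with annexin A2 at the membrane, and S100A11 binds annexin A1. In mouse T cells, many of these genes are known to be higher in effector and memory cells than in naive cells.

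Total counts per library ranged from 16418910 to 31155303. Values are TMM-scaled CPM, counts scaled to a common library total, unless stated; they correct for library size but not for gene length. Tcf7 was at 268 and 452 CPM in KO 1 and KO 2, against 811 to 947 CPM in the WT libraries. Among WT libraries, WT 3 and WT 4 stood apart in the immediate early gene Fos (315 and 278 CPM, against 45.3 and 31.8 CPM in WT 1 and WT 2), so counts are also given without them. The labels do not state how many cells entered each library. In bulk RNA, fewer cells of a type and less RNA per cell cannot be told apart.

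The 10 genes did not move together. S100a4, S100a6 and Lgals3 were higher in KO, Anxa2, Vim and Emp3 were lower, and S100a10, S100a11, Anxa1 and Lgals1 were not called at an adjusted p under 0.05. Over all 13652 genes tested, 8.13% were called higher and 5.58% lower, so 3 of 10 in each direction lay above the background, in a list chosen with earlier results of these data known. The median log2 fold change (KO over WT) of the 10 genes was -0.16, and that of all tested genes was 0.02. Both KO libraries lay above every WT library for 3 of the 10 genes (20.5% of all tested genes did) and below every WT library for 5 (18.8%). The 3 higher genes were called in each of 17 processing alternatives. Without WT 3 and WT 4, S100a4, S100a6 and Lgals3 were called higher and Anxa2 lower. Vim and Emp3 were not called there, at log2 fold changes of -0.36 and -0.37, against -0.33 and -0.39 with all libraries.

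**Figure D1:**
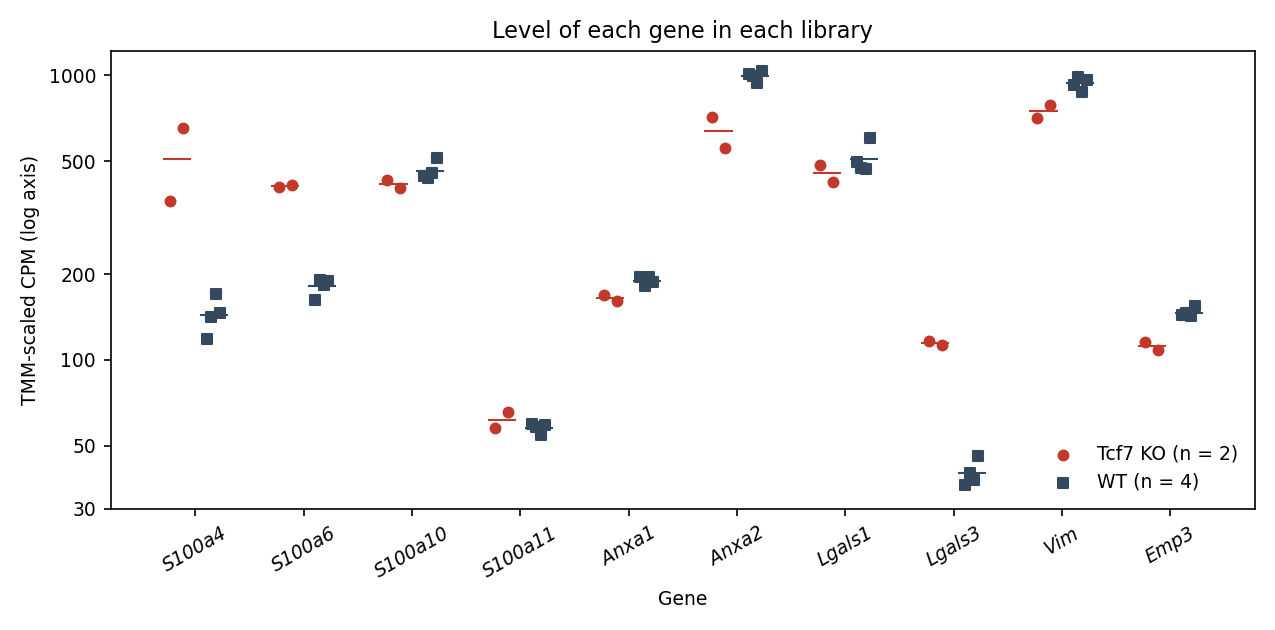
TMM-scaled CPM on a log axis for each of the 10 genes, with Tcf7 KO libraries as circles (n = 2) and WT libraries as squares (n = 4), and group means as lines. The KO points lie above every WT point for S100a4, S100a6 and Lgals3 and below every WT point for S100a10, Anxa1, Anxa2, Vim and Emp3.

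S100a4 (Entrez 20198) encodes a calcium sensor that binds non-muscle myosin II and is linked to cell motility. It had 361 CPM in KO 1 and 653 CPM in KO 2, against 118, 141, 170 and 146 CPM in WT 1, WT 2, WT 3 and WT 4. Both KO libraries lay above the WT range, and the KO libraries lay further from each other than the WT libraries did. The means were 507 ± 207 CPM in KO (SD, n = 2) and 144 ± 21.2 CPM in WT (SD, n = 4). The log2 fold change was 1.78 (SE 0.21, adjusted p = 0.00232), or 3.43-fold. It was 2.18 without KO 1 and 1.32 without KO 2, and it was called in both cases (adjusted p = 0.00218 and 0.0190).

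S100a6 (Entrez 20200) encodes calcyclin, a calcium sensor whose known partner is the calcyclin-binding protein. It had 405 and 413 CPM in KO 1 and KO 2, against 162, 191, 184 and 189 CPM in WT 1 to WT 4. The KO values were nearly equal and both above the WT range. S100a6 thus rose by 1.17 on the log2 scale (SE 0.09, adjusted p = 0.000518), or 2.25-fold. It stayed between 1.11 and 1.25 over the 17 alternatives. Cacybp, the gene of that partner, had 73.8 and 83.6 CPM in KO and 71.1 to 94.2 CPM in WT and was not called (log2 fold change -0.11, adjusted p = 0.641).

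S100a4 and S100a6 lie near each other on mouse chromosome 3 (mm10, S100a4 at 90603770 to 90606045, S100a6 at 90612894 to 90614414), with 6.85 kb between them. S100a11 (93520496 to 93526288) and S100a10 (93555117 to 93564645) lie 2.91 Mb further along the same chromosome. The 250 bases before the annotated start site of these genes are shown because the first pair rose while S100a11 was not called. Sequences are from RefSeq (GRCm38.p6, the build of mm10), all 3 on the plus strand. Capitals mark matches to a TCF/LEF core (CTTTGA), an AP-1 site (TGANTCA), a GC box (GGGCGG) or a TATA box (TATAAA), each searched on both strands.
S100a4, chr3:90603520-90603769: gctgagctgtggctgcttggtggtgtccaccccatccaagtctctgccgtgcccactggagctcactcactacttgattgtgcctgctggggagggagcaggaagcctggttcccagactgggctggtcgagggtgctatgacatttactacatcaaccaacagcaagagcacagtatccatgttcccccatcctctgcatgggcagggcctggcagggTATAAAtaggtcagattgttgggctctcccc
S100a6, chr3:90612644-90612893: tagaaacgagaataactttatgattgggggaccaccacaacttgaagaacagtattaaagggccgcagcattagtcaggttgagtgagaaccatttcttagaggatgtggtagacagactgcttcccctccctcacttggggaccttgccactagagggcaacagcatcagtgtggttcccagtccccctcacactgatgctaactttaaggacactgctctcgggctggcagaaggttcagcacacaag
S100a11, chr3:93520246-93520495: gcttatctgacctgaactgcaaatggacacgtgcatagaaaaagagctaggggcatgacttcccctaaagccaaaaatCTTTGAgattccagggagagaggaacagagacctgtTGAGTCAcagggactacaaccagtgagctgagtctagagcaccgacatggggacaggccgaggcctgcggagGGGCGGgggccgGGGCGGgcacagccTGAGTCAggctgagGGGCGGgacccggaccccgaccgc

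The S100a4 window held a TATA box 31 bases before the start site and none of the other marked motifs. The S100a6 window held none of the marked motifs. It held the RUNX letters TGTGGT in 3 places over both strands, which 14% of all 32851 promoter windows of this length held at least once. The S100a11 window held the TCF/LEF core 172 bases before the start, which 13.8% of windows held on either strand. It also held the AP-1 letters in 2 places (6.75% of windows held them) and the GC box in 3 (32.7%). TATA letters were found in 12.4% of windows. No matches in capitals overlapped each other. A match describes the letters only, and its absence from 250 bases says nothing of the factor.

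S100a10 (Entrez 20194), the annexin A2 partner, had 429 and 401 CPM in KO 1 and KO 2, against 444, 435, 454 and 511 CPM in WT 1 to WT 4. Both KO values lay below the WT range. The log2 fold change of -0.15 (SE 0.10) was not called (adjusted p = 0.365). S100a11 (Entrez 20195), the annexin A1 partner, had 57.6 and 65.7 CPM in KO, against 59.5, 57.9, 54.4 and 59.0 CPM in WT 1 to WT 4, and the groups overlapped. It was not called (log2 fold change 0.09, SE 0.11, adjusted p = 0.606).

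Of 15 S100 genes in the chromosome 3 block, 8 had enough counts to be tested. S100a4 and S100a6 were the 2 called by edgeR, both higher, beside 8.13% called higher and 5.58% lower over all genes. Both had been chosen with earlier results of these data known. S100a5, which lies between them, had no count in 5 libraries and 0.15 CPM in KO 2. S100a3, which ends before the start of S100a4, had at most 0.23 CPM in any library. S100a13, a calcium sensor gene at the near end of the block, had 51.5 and 42.1 CPM in KO, against 57.5 to 70.4 CPM in WT, and was not called (log2 fold change -0.39, adjusted p = 0.120). S100a1 had 9.16 and 10.8 CPM in KO and 7.37 to 11.5 CPM in WT (0.19, adjusted p = 0.625).

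**Figure D2:**
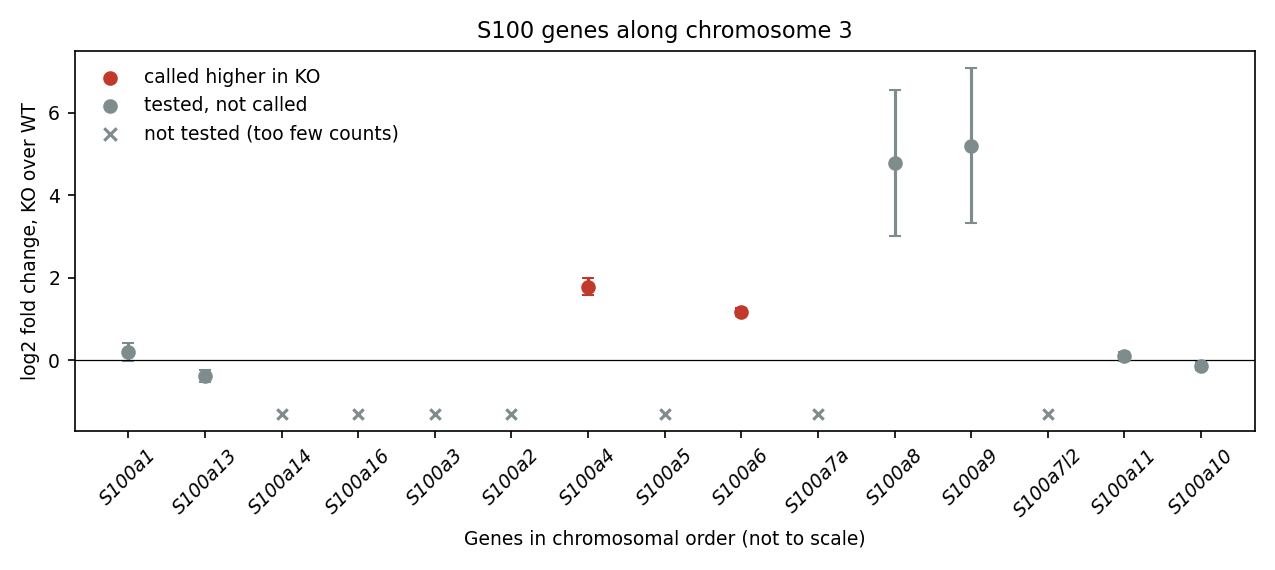
Log2 fold change (KO over WT, bars are SE) of the S100 genes in their order along chromosome 3, with red points for genes called higher in KO, grey points for tested genes that were not called and crosses, placed below the zero line, for genes with too few counts to test. S100a4 (1.78) and S100a6 (1.17) are the red points, while S100a8 and S100a9 have higher estimates with SE bars of 1.76 and 1.88.

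S100a8 and S100a9, which encode the subunits of the neutrophil protein calprotectin, lie in the same block and are described here after their values were seen. S100a8 had 37.3 and 20.5 CPM in KO 1 and KO 2, 10.6 CPM in WT 4 and 0 to 0.18 CPM in the other WT libraries. S100a9 had 60.9 and 38.8 CPM in KO, 17.6 CPM in WT 4 and 0 to 0.04 CPM in the other WT libraries. Neither was called by edgeR (adjusted p = 0.119 and 0.113). By DESeq2 S100a9 was called (adjusted p = 0.00655) and S100a8 was not (0.0637), and by limma voom both were (0.0239 and 0.0169). In WT 4, S100a4 was at 146 CPM, S100a6 at 189 CPM and Lgals3, the highest of the WT libraries, at 45.9 CPM. The part of cells with S100a8 and S100a9 in the rises of these genes was not tested.

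Per base of gene length, the make-up of the 4 S100 transcripts differed between the groups. S100a4 made up 35.1% and 49.8% of their summed RPKM (CPM per kilobase of the deposited gene length) in KO 1 and KO 2, against 18.7%, 21.2%, 24.3% and 20.1% in WT 1 to WT 4. S100a6 made up 27.3% and 21.8% in KO, against 17.9% to 19.9% in WT. S100a10 held the remainder for the most part, with 32% and 23.4% in KO and 49.8% to 54% in WT. The ratio of S100a4 to S100a6 RPKM was 1.28 and 2.28 in KO 1 and KO 2, against 1.05 to 1.33 in WT, so the groups overlapped in that ratio. These shares do not depend on library scaling, and no test was made on them.

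**Figure D3:**
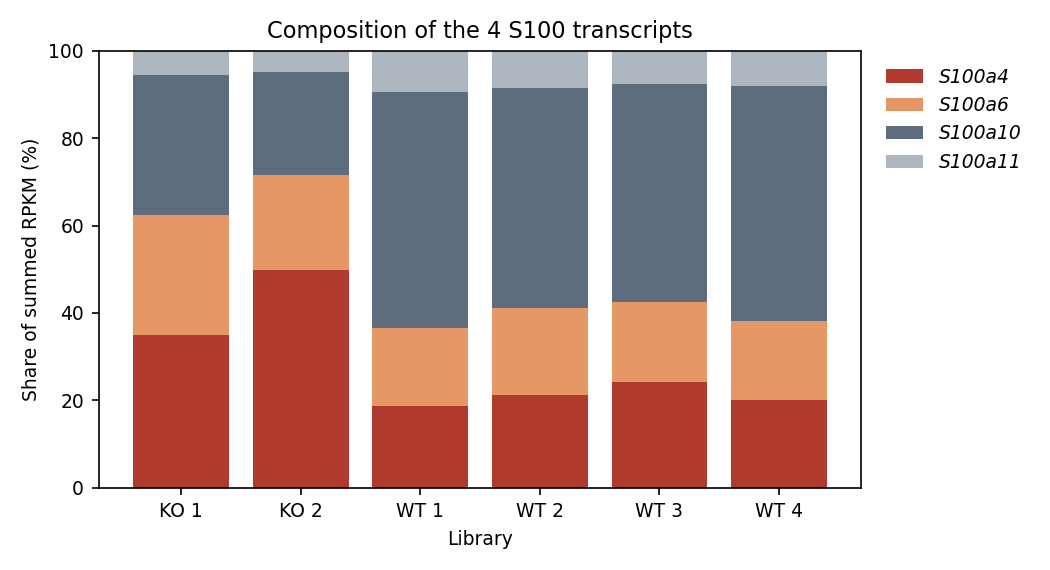
Share of S100a4, S100a6, S100a10 and S100a11 in their summed RPKM (%), as stacked bars for each library, KO libraries left of WT libraries. S100a4 fills 35.1% and 49.8% of the KO bars, and S100a10 fills 49.8% to 54% of the WT bars.

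Among the annexins, Anxa2 (Entrez 12306, chromosome 9, 69453683 to 69491792) encodes annexin A2, a membrane scaffold that gathers S100A10 and actin at the plasma membrane. It had 714 and 556 CPM in KO 1 and KO 2, against 1007, 998, 939 and 1032 CPM in WT 1 to WT 4. Both KO values lay below the WT range. The means were 635 ± 112 CPM in KO (SD, n = 2) and 994 ± 39.6 CPM in WT (SD, n = 4). Anxa2 changed by -0.65 on the log2 scale (SE 0.11, adjusted p = 0.0104). When KO 2 was left out, it changed by -0.45 and was not called (adjusted p = 0.0569). The RPKM ratio of S100a10 to Anxa2 was 1.27 and 1.52 in KO, against 0.93, 0.92, 1.02 and 1.05 in WT 1 to WT 4, with no overlap.

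Anxa1 (Entrez 16952, chromosome 19, 20373434 to 20390671) encodes annexin A1, a glucocorticoid-induced protein that acts on formyl peptide receptors. It had 169 and 161 CPM in KO, against 195, 182, 196 and 187 CPM in WT 1 to WT 4. The KO values lay below the WT range, but the difference was small and was not called (log2 fold change -0.21, SE 0.09, adjusted p = 0.179). Fpr1 and Fpr2, the receptor genes, had at most 2.49 CPM in any library and were near 0 in WT. DESeq2 called Fpr2, and edgeR did not. Of 8 other annexin genes tested of 10, Anxa8 and Anxa4 rose, Anxa6 fell and 5 were not called by edgeR, beside 8.13% called higher and 5.58% lower over all genes. DESeq2 called 6 of the 8, with Anxa3, Anxa7 and Anxa9 added, and limma voom called 5. Log2 fold changes of the 8 ran from -2.54 to 4.98, both ends from genes that edgeR did not call. Their median was 0.17, beside 0.02 over all genes.

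Anxa8, a low-expressed annexin gene in WT, had 61.7 and 27.6 CPM in KO 1 and KO 2, against 2.06 to 2.60 CPM in WT, a rise of 4.22 on the log2 scale (SE 0.29, adjusted p = 0.000352). It was called in all 17 alternatives. Anxa6, another membrane-binding annexin gene, had 1041 and 985 CPM in KO, against 1238 to 1358 CPM in WT (-0.36, adjusted p = 0.0289). Anxa4 had 25.1 and 23.7 CPM in KO, against 11.7 to 17.9 CPM in WT (0.81, adjusted p = 0.0282). With the replicate number as a block Anxa4 was not called (adjusted p = 0.0524), and with library-size scaling Anxa6 was not (0.0567). Leaving out WT 1, WT 2, WT 3 or KO 1 ended the call of Anxa4 (adjusted p 0.0708 to 0.209), and leaving out any library but WT 4 ended that of Anxa6 (0.0661 to 0.137).

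The 2 galectin genes differed. Lgals3 (Entrez 16854, chromosome 14, 47373860 to 47386167) encodes galectin-3, which carries a collagen-like tail and forms multimers on glycoproteins. It had 116 and 113 CPM in KO 1 and KO 2, against 36.4, 40.1, 37.7 and 45.9 CPM in WT 1 to WT 4. The KO values were close to each other and well above every WT library. The log2 fold change was 1.53 (SE 0.11, adjusted p = 0.000435), or 2.88-fold, with a range of 1.39 to 1.65 over the alternatives.

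Lgals1 (Entrez 16852, chromosome 15, 78926725 to 78930465) encodes galectin-1, a dimeric lectin made by many activated lymphocytes. It had 484 and 423 CPM in KO, against 495, 474, 468 and 600 CPM in WT 1 to WT 4, and the groups overlapped. It was not called (log2 fold change -0.16, SE 0.13, adjusted p = 0.446). The RPKM ratio of Lgals3 to Lgals1 was 0.14 and 0.15 in KO, against 0.042 to 0.048 in WT. Of 5 other galectin-list genes tested, 0 were called by edgeR, DESeq2 or limma voom and 1 had an unadjusted p under 0.05 in edgeR. Their median was 0.16. The 2 with the highest CPM, a level not corrected for length, were Lgals3bp, a secreted galectin ligand gene, with 223 and 372 CPM in KO and 188 to 262 CPM in WT, and Lgals9, with 133 and 169 CPM in KO and 156 to 190 CPM in WT.

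The promoter windows of the galectin gene that rose and of the annexin gene with the largest fall among the 10 are shown for comparison with those of the S100 genes, with the same motifs in capitals (RefSeq, GRCm38.p6, plus strand).
Lgals3, chr14:47373610-47373859: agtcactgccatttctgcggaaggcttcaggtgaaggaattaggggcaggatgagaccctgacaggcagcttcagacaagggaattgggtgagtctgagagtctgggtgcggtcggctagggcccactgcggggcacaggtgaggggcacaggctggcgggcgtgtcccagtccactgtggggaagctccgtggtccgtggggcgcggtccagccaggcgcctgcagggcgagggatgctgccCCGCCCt
Anxa2, chr9:69453433-69453682: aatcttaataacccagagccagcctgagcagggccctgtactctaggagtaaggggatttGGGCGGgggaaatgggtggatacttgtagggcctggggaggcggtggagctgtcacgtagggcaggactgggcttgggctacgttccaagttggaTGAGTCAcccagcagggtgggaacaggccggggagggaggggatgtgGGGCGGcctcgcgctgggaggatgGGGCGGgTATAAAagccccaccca

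The Lgals3 window held a GC box on the other strand 7 bases before the start and no TCF/LEF core. The Anxa2 window held an AP-1 match 95 bases before the start, a TATA box at 17 bases and the GC box in 3 places. Over 9 windows of 8 genes in the promoter table, the TCF/LEF core was found for S100a11 and for 1 of the 2 Emp3 windows, and for none of S100a4, S100a6 and Lgals3. The T-box letters GGTGTGA were found in none of the 9 windows and in 3.33% of all windows. S100a10 and Lgals1 were not matched.

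Vim (Entrez 22352, chromosome 2, 13574311 to 13582826) encodes vimentin, the intermediate filament protein of lymphocytes and mesenchymal cells. It had 706 and 787 CPM in KO 1 and KO 2, against 928, 985, 876 and 964 CPM in WT 1 to WT 4, and the groups did not overlap. The log2 fold change was -0.33 (SE 0.08, adjusted p = 0.0313). The call was lost when any library except WT 4 was left out (adjusted p 0.0777 to 0.147), with library-size scaling (0.0646) and without WT 3 and WT 4 (0.0601). With the replicate number as a block, Vim was not called either (0.0680). That fit takes the genotype difference from the same libraries as the fit without WT 3 and WT 4, and is no separate check. Emp3 (Entrez 13732, chromosome 7, 45918023 to 45921426) encodes a small membrane protein of the PMP22 family. It had 115 and 109 CPM in KO, against 144, 146, 142 and 155 CPM in WT 1 to WT 4, with no overlap (log2 fold change -0.39, SE 0.10, adjusted p = 0.0416). Its call was lost when any 1 of the 6 libraries was left out (0.0571 to 0.213). The Emp3 call was also lost with upper-quartile scaling (0.0523), library-size scaling (0.0860) and without WT 3 and WT 4 (0.128). The replicate number as a block (0.128) again adds no separate check. Emp1, the only other tested gene of that family, had 2.78 and 12.7 CPM in KO and 1.62 to 4.12 CPM in WT and was not called by edgeR (adjusted p = 0.0795). DESeq2 and limma voom called Emp1 higher (adjusted p = 0.0369 and 0.0200).

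Of 6 tested genes among 10 other intermediate filament and linker genes, Krt8 and Lmnb1 rose, Lmna fell and 3 were not called by edgeR, with a median of 0.60, beside 8.13% called higher and 5.58% lower over all genes. Lmna, which encodes the lamins A and C of the nuclear envelope, had 19.0 and 27.3 CPM in KO and 40.2 to 66.7 CPM in WT (log2 fold change -1.15, adjusted p = 0.00376). Lmnb1, the lamin B1 gene, had 282 and 219 CPM in KO and 141 to 161 CPM in WT (0.77, adjusted p = 0.00832). Leaving out KO 1 ended that call (adjusted p = 0.0797). The keratin gene Krt8 had 2.32 and 8.47 CPM in KO and at most 0.16 CPM in WT (adjusted p = 0.00849, and 0.142 without KO 2). Its WT level rested on 0 to 4 counts, so no fold is given.

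Ranked by RPKM, the order of the 10 genes differed between the groups. In KO, S100a4 was highest at 1016 ± 415, followed by S100a10 at 638 ± 31.0, S100a6 at 569 ± 7.58 and Lgals1 at 567 ± 53.9 (SD, n = 2). In WT, Anxa2 and S100a10 were highest at 724 ± 28.8 and 709 ± 52.2, followed by Lgals1 at 637 ± 77.4 and Vim at 512 ± 26.1, while S100a4 and S100a6 came below these at 288 ± 42.5 and 253 ± 18.3 (SD, n = 4). Emp3, Anxa1 and S100a11 lay between 115 and 151 in WT and between 115 and 122 in KO. Lgals3 was lowest in every library, at 82.8 and 80.6 in KO and 25.9 to 32.7 in WT. In KO, the ranges over libraries of S100a6 and Lgals1, of Anxa2 and Vim, and of S100a11, Anxa1 and Emp3 overlapped. Within each KO library Anxa1 lay above Emp3, while the other overlapping pairs changed order between KO 1 and KO 2. In WT, the ranges of Anxa2, S100a10 and Lgals1 overlapped, as did those of S100a4 and S100a6. Within every WT library, Lgals1 nonetheless ranked 3, S100a4 ranked 5 and S100a6 ranked 6. Anxa2 lay above S100a10 in WT 1 and WT 2 and below it in WT 3 and WT 4. The 10 genes together held 0.374% and 0.378% of all counts in KO, against 0.350% to 0.379% in WT.

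By sex, the 2 KO libraries gave different values for S100a4 and Anxa2. On the log2 CPM scale, S100a4 in KO exceeded the WT mean of the same sex by 2.18 in females and 1.35 in males. Anxa2 differed by -0.87 in females and -0.45 in males. The interaction of genotype and sex was not called for any of the 10 genes (adjusted p = 0.470 for both S100a4 and Anxa2, unadjusted p = 0.0303 and 0.0308). By edgeR, 0 of 13652 genes were called for the interaction (0%), while 1368 had an unadjusted p under 0.05. With library-size scaling the number called was also 0. With 1 KO library of each sex, the sex and the individual mouse cannot be told apart.

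Partner and receptor genes were mixed. Of 25 listed, 19 could be tested. By edgeR, P2rx7 rose, 4 genes fell, 14 did not pass the test, and the median was -0.08. Over all genes, edgeR called 8.13% higher and 5.58% lower. DESeq2 and limma voom each called 9 of the 19, beside 2955 and 2410 of all 13652 genes. Itgb1, the integrin beta-1 gene, fell to 1079 and 785 CPM in KO, against 1946 to 2413 CPM in WT (log2 fold change -1.26, adjusted p = 0.00121). Capn1, the calpain-1 protease gene, had 201 and 216 CPM in KO and 276 to 342 CPM in WT (-0.61, adjusted p = 0.0165), and lost its call without KO 1 or KO 2 (0.103 and 0.0868). P2rx7, the gene of an ATP-gated channel, had 3.48 and 7.61 CPM in KO and 0 to 0.73 CPM in WT (adjusted p = 0.0144), and lost its call without KO 1 or KO 2 (0.0771 and 0.0587). Myh9, the myosin partner gene of S100A4, had 2484 and 2672 CPM in KO and 2558 to 3478 CPM in WT and was not called (-0.25, adjusted p = 0.239). Ahnak, the large scaffold protein gene tied to the S100A10 and annexin A2 complex, had 2702 and 2646 CPM in KO and 2436 to 2898 CPM in WT (0.0025, adjusted p = 0.987).

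Actin and adhesion cytoskeleton genes were mostly lower or not called. All 20 could be tested. By edgeR, 8 of these fell, Capg rose, 11 did not pass the test, and the median was -0.27. Over all genes, edgeR called 8.13% higher and 5.58% lower. DESeq2 called 12 of the 20 and limma voom 11, beside 2955 and 2410 of all 13652 genes. Zyx, the zyxin gene of focal adhesions, had 578 and 701 CPM in KO and 977 to 1020 CPM in WT (log2 fold change -0.65, adjusted p = 0.00423). Vcl, the vinculin gene, had 43.9 and 31.1 CPM in KO and 48.8 to 60.7 CPM in WT (-0.60, adjusted p = 0.0383), and its call was lost without WT 1, WT 2, WT 3 or KO 2 (0.0664 to 0.222). The Vcl call was also lost with library-size scaling (0.0621), without the sex term (0.0503) and with the replicate number as a block (0.0515). Capg, a calcium-dependent actin capping protein gene, was the 1 that rose, with 272 and 416 CPM in KO and 135 to 172 CPM in WT (1.20, adjusted p = 0.00138).

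**Figure D4:**
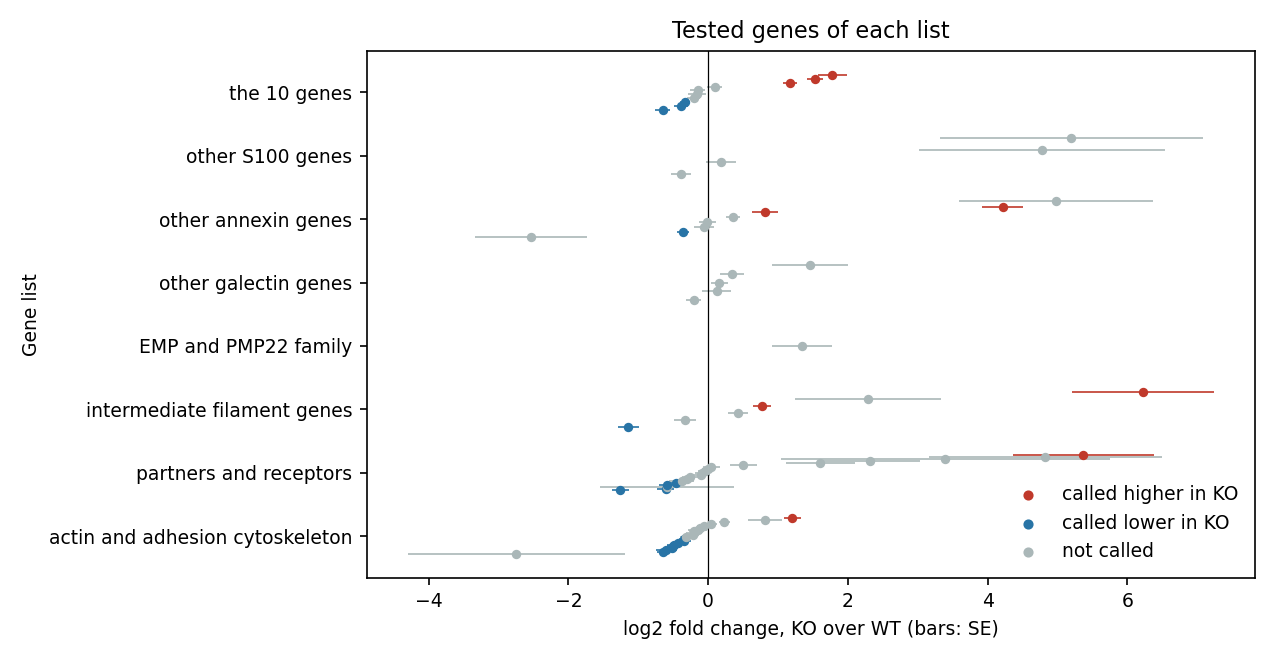
Log2 fold change (KO over WT, bars are SE) of each tested gene, by gene list, in red where called higher in KO, blue where called lower and grey where not called. In the actin and adhesion list 8 genes are blue and 1 is red, and in the list of 10 genes 3 are red and 3 blue.

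Marker genes of several other cell types were also higher in the KO libraries, and their part in the rises of S100a4, S100a6 and Lgals3, which many myeloid, stromal and effector T cells express, was not tested. Over all genes, edgeR called 8.13% higher and 5.58% lower, and the marker counts are edgeR calls. Of 10 NK marker genes, 0 rose and Klrb1c and Tyrobp fell, with a median log2 fold change of -0.33. Of these 10, 7 had an unadjusted p under 0.05, DESeq2 called 7 and limma voom 4. Their summed levels were 14426 and 12324 CPM in KO and 14217 to 15098 CPM in WT. Of 12 alpha-beta T cell genes, 5 rose, with sums of 1714 and 2201 CPM in KO and 385 to 590 CPM in WT, and none was at 0. Of 5 gamma-delta T cell genes found, 3 rose, with sums of 465 and 266 CPM in KO and 186 to 270 CPM in WT, which overlapped. Of 10 ILC2 and ILC3 genes, 3 of 5 tested rose, with sums of 89.9 and 130 CPM in KO and 2.15 to 10.7 CPM in WT, and Il22 and Il17a were at 0 in every library.

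The counts that follow are also edgeR calls, beside 8.13% called higher and 5.58% lower over all genes. Of 8 B cell genes, 6 rose, with sums of 211 and 58.1 CPM in KO 1 and KO 2 and 9.92 to 24.4 CPM in WT. Of 12 myeloid genes, Mpo and Elane rose among 10 tested, with sums of 70.4 and 206 CPM in KO, 55.1 CPM in WT 4 and 4.86 to 13.1 CPM in the other WT libraries. Elane was at 0 in all WT libraries. Of 13 stromal and epithelial genes, 4 of 6 tested rose (Pdgfrb, Epcam, Krt5 and Pecam1), with sums of 276 and 477 CPM in KO and 111 to 120 CPM in WT. Pecam1, which NK cells also express, held most of the WT sum. The fibroblast collagen gene Col3a1 had at most 0.19 CPM in any library, and Lum and Krt14 were at 0 in every library. Between the KO libraries, KO 1 had the higher B cell and gamma-delta T cell sums and KO 2 the higher alpha-beta T cell, ILC, myeloid and stromal sums. S100a4 was higher in KO 2 (361 CPM in KO 1 and 653 CPM in KO 2), S100a6 had 405 and 413 CPM, and Lgals3 had 116 and 113 CPM.

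The genes whose profile over the 6 libraries was closest to the mean centred log2 CPM of the 10 genes were Slc44a2, 1810013L24Rik, Nudcd2, Tysnd1 and Bcat2, at root mean square distances of 0.036 to 0.048 among 7812 candidates. Since the 10 genes went both ways, that mean profile was shallow, with 0.16 and 0.20 in KO 1 and KO 2 and -0.15 to -0.00050 in WT. It was higher in KO, opposite in sign to the median log2 fold change of the 10 genes (-0.16).

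**Figure D5:**
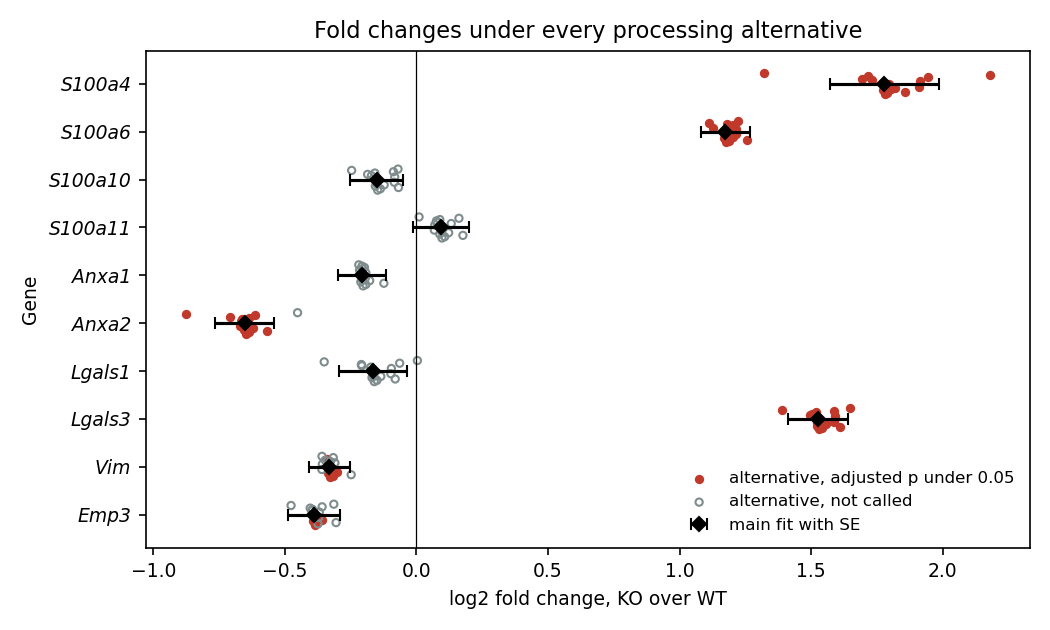
Log2 fold change (KO over WT) of each gene in the main fit (black diamonds with SE) and in 17 processing alternatives, filled in red where the adjusted p was under 0.05 and open where it was not. S100a4, S100a6 and Lgals3 stay filled and above 1 throughout, while Vim and Emp3 have open points in 8 and 10 alternatives.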

How the data were processed

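RNA-seq of sorted thymic NK cells was deposited as raw counts per gene. The authors used featureCounts and mm10, per the submitters' processing notes, which as used here name no aligner and no versions. Per the labels' protocols, libraries were made with the SMART-Seq v4 kit, which amplifies cDNA from few cells and does not mark strand. Reads of overlapping or antisense genes therefore cannot be told apart, and counts are not independent molecules. Other deposited values were gene lengths. The 6 single-sample files held the same counts. Symbols were matched for 25275 of 26332 identifiers through RefSeq, and the other 1057 held 0.623% of counts.

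KO was compared with WT with edgeR 4.0.16 (R 4.3.3): TMM, filterByExpr, glmQLFit and glmQLFTest with sex as an additive term, Benjamini-Hochberg adjustment over 13652 genes and a threshold of 0.05. Adjusted p come from this test unless another tool, another scaling, a left-out library or the interaction is named beside them. SE is the fold change divided by the root of F. Residual degrees of freedom were 3, and the spread of each gene was moderated toward a trend over all genes, with 4.50 prior degrees of freedom. A floor of 3 counts equals 0.0963 to 0.183 CPM, covering counting error only. Named genes were the 10, Tcf7, up to 3 called genes per list (otherwise the most expressed up to 2), and genes marked or set beside a result (Fos, the partners Cacybp, Myh9, Ahnak, Fpr1 and Fpr2, the block neighbours and markers). The latter were chosen after values were seen. The 10 genes and all lists were chosen with earlier results of these data known. S100a11 and Lgals1 have named pseudogene copies, and Anxa2 a related one, so the split of their reads is uncertain. Scripts were tested on simulated data.

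Tried beside it were scaling by RLE, by upper quartile or by library size, other filters (none, or 5 CPM in 2 libraries), no sex term, a replicate block, DESeq2 1.42.0, limma 3.58.1 (voom), robust fitting, and leaving out each library or WT 3 with WT 4. With 1 KO library, it was assumed to vary like WT. P-values set the genotype difference against the spread between libraries, each from an individual mouse, with that spread moderated over genes. That spread holds differences between mice and in handling, which cannot be told apart.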

Additional observations from a re-analysis of the deposited data

How the results depend on the processing

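S100a4, S100a6 and Lgals3 were called higher in all 17 alternatives, and S100a10, S100a11, Anxa1 and Lgals1 were called in none. The count of all genes called was 1872, with 2955 by DESeq2 and 934 to 1908 when 1 library was left out. Higher calls made up 59.3% of all calls, and 71.9% with library-size scaling. Of the 10 genes, the 3 called lower became 1 with library-size scaling, 1 without WT 3 and WT 4, and 0 to 2 when 1 library was left out. This count was added after seeing the data. The median log2 fold change of the 10 genes, -0.16, was -0.075 with library-size scaling, -0.089 without WT 3 and WT 4, and -0.23 to -0.033 when 1 library was left out. Lgals1 had a log2 fold change of -0.35 without KO 1 and 0.0034 without KO 2 (adjusted p = 0.994), the extremes of leaving out 1 library. With library-size scaling, the median of all tested genes was 0.0997, against 0.0173 in the main fit. The TMM factors, which that scaling leaves out, were 1.05 and 1.03 in KO 1 and KO 2 and 0.974 to 1.00 in WT. Leaving out libraries also leaves fewer degrees of freedom, which bears on the calls and not on the fold changes. The cause of the difference in TMM factors and of the shifts with left-out libraries was not tested. Same-numbered libraries share only a number and a sex. The correlation of their deviations across genes was 0.13 for KO 1 with WT 1 and -0.048 for KO 2 with WT 2. With 2 KO libraries, the deviations of KO 2 are the negatives of those of KO 1. These values are therefore not independent and cannot decide on a pairing. With the replicate number as a block, 1341 genes were called, of the 10 genes 3 higher and 1 lower, with a median of -0.091. In that fit WT 3 and WT 4 have no KO counterpart and do not inform the genotype difference. It and the fit without WT 3 and WT 4 are therefore not separate checks among the 17 alternatives. Each of the 10 genes had at least 629 counts in every library.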
